A study of Mus musculus with 6 samples.

Results

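The collagens and laminins are the structural chains of the extracellular matrix. Genes were taken by symbol, as Col followed by a number, a and a number, or as Lama, Lamb or Lamc followed by a number. This gave 55 members, 44 collagens and 11 laminins, of the 33696 genes in the count matrices. Collagen-like proteins under other names were not included.

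The study used droplet single-cell RNA sequencing of mouse brain cells. The 6 libraries fell into 3 groups of 2: TRPM2 Mg KO mice given bilirubin (TRPM2 Mg KO bilirubin), wild-type mice given bilirubin (WT bilirubin) and wild-type mice given vehicle (WT vehicle). Bilirubin is the yellow breakdown product of haem, and Trpm2 encodes a calcium-permeable cation channel. The labels do not expand Mg and give no driver, floxed allele, dose, duration, brain region, age or sex, and the WT libraries carry no stated allele. Nothing states that the 2 libraries of a group came from separate animals, so the p-values below measure the spread between libraries, which may be technical.

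Collagen chains wind into triple helices. Fibrillar collagens build tension-bearing fibres, collagen IV forms the sheet-like network of basement membranes, and laminins, each a trimer of an alpha, a beta and a gamma chain, form the other network of those sheets. In the brain such matrix lines the meninges, the blood vessels and the choroid plexus, and fibroblasts, mural cells (pericytes and smooth muscle), endothelium and astrocytes are known sources.

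Cells were assigned to classes with 12 or fewer marker genes per class, none of them a collagen or laminin. Of 95014 barcodes, 79898 cells were kept after filters and doublet removal, and 28980 of these passed a gate. The gates held 589 fibroblast, 549 mural, 3985 endothelial and 10103 choroid plexus epithelial cells, together with 5 other classes that had at least 20 cells in each library (ependymal, astrocyte, oligodendrocyte, microglia, and T or NK cell). Libraries held 24165563 to 63402551 UMIs (unique molecular identifiers, each standing for 1 captured RNA molecule). Levels below are the member's UMIs per 1000000 UMIs of the class in 1 library (CPM). A 3′ UMI counts molecules and not bases, so levels of different genes need no length correction.

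Most gates held most of their defining genes. Fibroblast-gated cells averaged 620 CPM of Slc47a1, 471 of Islr and 155 of Dcn, but Dpt had 4 UMIs and Lum averaged 22.5 CPM. The fibroblast markers Aldh1a2, Slc22a6 and Slc6a13 were also low, at 7.19, 8.16 and 28.5 CPM. Their 10 leading genes by fold were Slc47a1, Bnc2, Col1a1, Rspo3, Sfrp4, Prg4, Itgbl1, Mgp, Timp1 and Tnfrsf11b. Mural-gated cells were led by Atp13a5, Abcc9, Kcnj8 and Vtn, and the leading genes of the 4 main classes included no marker of another class. The 10 leading genes of astrocyte-gated cells held 0 of their own markers and 0 of other classes. Of the mural-gated cells 32.8% lay near the gate's limits, of the astrocytes 29.9% and of the fibroblasts 28.4%, and the limits were set after the data had been seen.

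WT vehicle 1 and the endothelial cells of TRPM2 Mg KO bilirubin 2 stood apart. In WT vehicle 1, 9 neuronal RNAs summed to 8841 CPM in fibroblast-gated cells, against 804 to 2566 in the other libraries, and Ttr, the choroid plexus transport protein, made up 11353 CPM of the library against 66530 to 121422. In TRPM2 Mg KO bilirubin 2 the 12 endothelial markers summed to 4733 CPM in endothelial-gated cells, against 6414 to 14652 elsewhere, and those 609 cells had a median of 10261 UMIs. Pairs of libraries shared 12 to 144 barcodes, 0.29% to 0.94% of the smaller one.

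Trpm2 did not separate the groups. In microglia-gated cells its levels were 15.7 and 19.9 CPM in TRPM2 Mg KO bilirubin, 18.9 and 34.9 in WT bilirubin, and 23.5 and 13.8 in WT vehicle. Over all barcodes they were 6.60 and 4.59 CPM in TRPM2 Mg KO bilirubin, 5.12 and 8.16 in WT bilirubin, and 11.8 and 6.42 in WT vehicle. A 3′ tag can lie outside a deleted exon, so these counts do not check the knockout label.

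The first question was which cells carried the matrix transcripts. Fibroblast-gated cells held by far the most per UMI: all 55 members summed to 3392 and 3577 CPM in TRPM2 Mg KO bilirubin, 3335 and 4081 in WT bilirubin, and 3545 and 3026 in WT vehicle. Mural-gated cells gave 1921 and 1094 CPM in TRPM2 Mg KO bilirubin, 1443 and 2175 in WT bilirubin, and 1330.0 and 1038 in WT vehicle. Every fibroblast sum was above every mural sum. Endothelial-gated cells averaged 682 ± 147 CPM, astrocytes 632 ± 183, ependymal cells 630 ± 137 and choroid plexus cells 447 ± 84.0 (SD, n = 6 libraries). Oligodendrocytes at 332 ± 50.7, microglia at 316 ± 25.2 and T or NK cells at 310 ± 87.4 CPM did not differ from each other beyond their spread.

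Fibroblast-gated cells were 0.737% of the kept cells and held 9.95% of the members' UMIs in them. Choroid plexus cells were 12.6% of the cells with 26.6% of the UMIs, endothelial cells 4.99% with 8.96%, and mural cells 0.687% with 1.36%. Cells that passed no gate made up 63.7% of the cells and 39.8% of the UMIs.

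**Figure D1:**
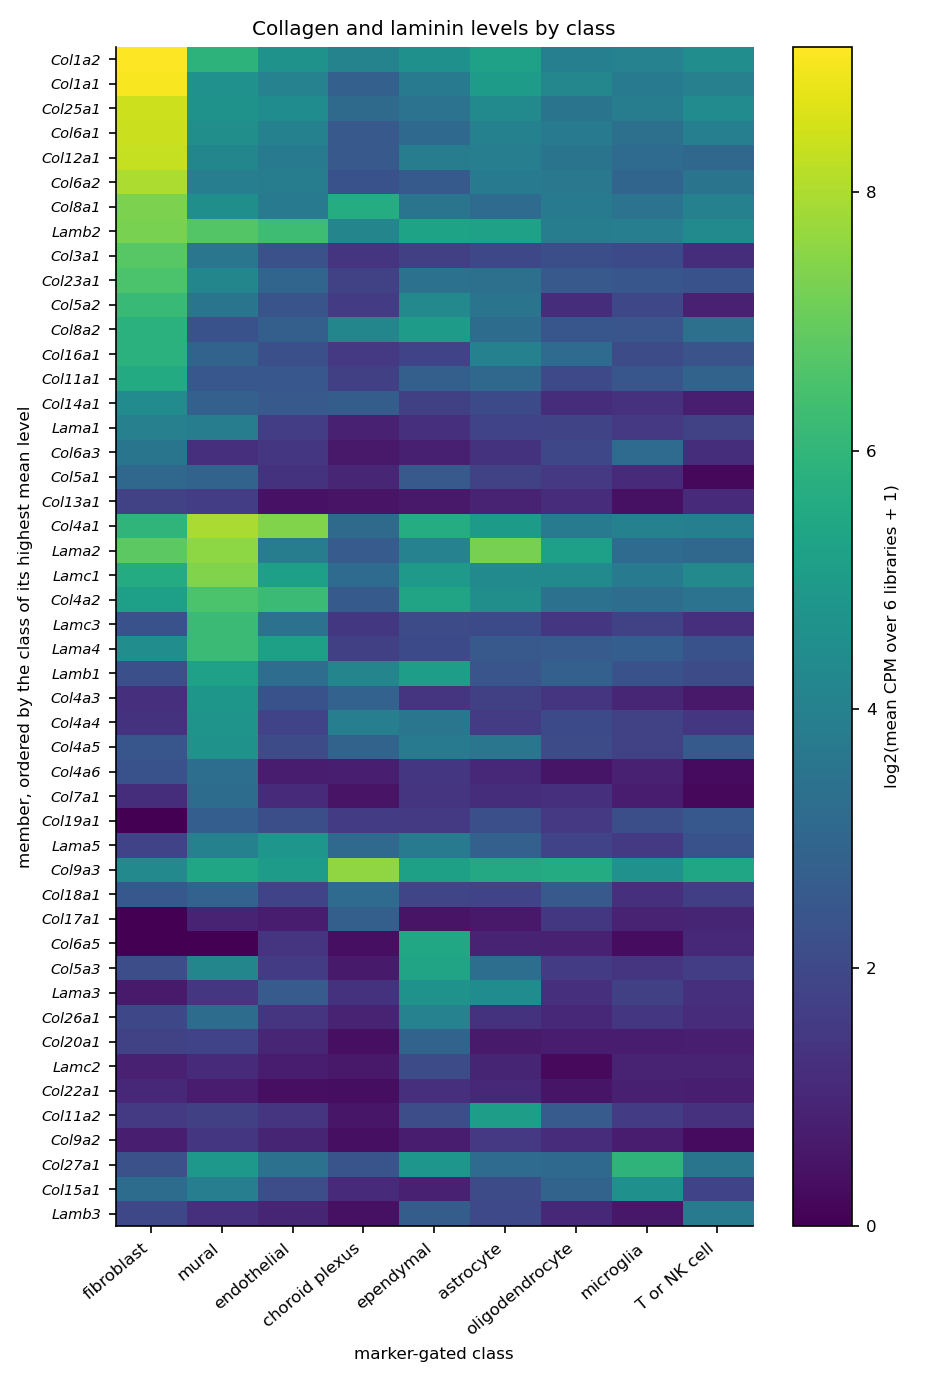
Levels of the 48 members with at least 50 UMIs in the 9 tested classes, shown as log2(mean CPM + 1) over 6 libraries, with members down the page and classes across. Fibroblast-gated cells had the highest level for 19 of the 48 and mural-gated cells for 13.

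Of the 55 members, 48 had at least 50 UMIs in the 9 tested classes and 7 had fewer. Among the 48, the class with the highest mean was fibroblast for 19, mural for 13, ependymal for 7, choroid plexus for 3, astrocyte and microglia for 2 each, and endothelial (Lama5) and T or NK cell (Lamb3) for 1 each. For 10 of the 19 fibroblast members, the lowest fibroblast library lay above every library of every other class: Col1a1, Col1a2, Col3a1, Col5a2, Col6a1, Col6a2, Col8a1, Col11a1, Col12a1 and Col25a1. The same held for Lamc1 and Lamc3 in mural cells, Col9a3 in choroid plexus cells and Col11a2 in astrocytes. No member was a gate marker. The gates could still favour cells that express members along with the markers, and their part in this order was not tested. The shares of all genes with these top classes, or without overlap, are not given, so the counts describe the members only.

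Promoter sequence is shown for 4 of the members highest in fibroblasts, 1 fibrillar collagen, 1 collagen VI, 1 collagen VIII and 1 laminin chain. The regions before genes with the same highest class can thus be set side by side. Their fibroblast means were 9.46 (Col1a2), 15.3 (Col6a1), 3.27 (Col8a1) and 1.52 (Lamb2) times those of the next class. The stretches are from RefSeq promoter windows on GRCm38.p6, read 5′ to 3′ on the gene's strand, and touch no GENCODE vM21 exon and no part of the gene's RefSeq extent. They lie at chr6:4505370-4505492 (plus strand, Col1a2), chr10:76726169-76726294 (minus, Col6a1), chr16:57754738-57754887 (minus, Col8a1) and chr9:108479779-108479846 (plus, Lamb2). The Col8a1 stretch ends at the base before the RefSeq start, and annotated exons left 125, 124 and 15 bases between stretch and start for Col1a2, Col6a1 and Lamb2. Capitals mark GGGCGG, or CCGCCC where it lies on the other strand, the GC box that factors of the Sp family are known to bind.
Col1a2: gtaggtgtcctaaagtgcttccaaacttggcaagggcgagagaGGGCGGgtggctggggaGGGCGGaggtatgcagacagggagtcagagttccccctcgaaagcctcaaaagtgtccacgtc
Col6a1: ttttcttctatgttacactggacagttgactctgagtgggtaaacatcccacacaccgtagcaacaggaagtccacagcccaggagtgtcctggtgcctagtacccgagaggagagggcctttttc
Col8a1: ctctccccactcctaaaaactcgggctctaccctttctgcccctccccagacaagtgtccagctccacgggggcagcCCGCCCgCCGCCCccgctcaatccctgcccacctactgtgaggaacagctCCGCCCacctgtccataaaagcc
Lamb2: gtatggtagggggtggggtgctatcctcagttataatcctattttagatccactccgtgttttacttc
Col1a2 and Col8a1 held the motif in the printed stretch, and Col6a1 and Lamb2 did not. RefSeq gave windows for 40 members, 44 in all. In the 250 bases upstream of the start, on either strand, GGGCGG was present in 54.5% of the member windows (23 members), against 32.7% of 32851 mouse windows. CCAAT was present for 14 members, against 33.8% of all windows, and TATAAA for 5, against 12.4%. Each motif was counted by itself, whatever its overlap with another. A match is a run of letters only, and binding was not measured.

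Differences between classes were tested with edgeR's quasi-likelihood test on 24 sums, 4 classes in each of 6 libraries, with the library as a block and Benjamini-Hochberg adjustment over 9602 genes. Of the members, 24 passed the filter on low counts. Because this filter keeps a gene through the class where it is high, these 24 do not stand for all members. Many genes differ between such unlike cells, so each count is given beside the share of all genes.

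Against mural cells, 14 members were higher in fibroblast-gated cells and 9 lower at an adjusted p under 0.05, while 16.9% of all genes were higher, 18.7% lower and 35.6% called in either direction. Against endothelial cells, 16 were higher and 6 lower in fibroblasts, beside 20.5% and 23.8% of all genes (44.3% together). Against choroid plexus cells, 20 were higher and 4 lower, beside 29.8% and 33.6% (63.4%). The median member difference was 2.58 on the log2 scale for fibroblasts over mural cells, where the median of all genes was 0.01. Without WT vehicle 1, 24, 23 and 25 members were called in these comparisons, against 23, 22 and 24 with it.

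Of the 11 fibrillar chains, 6 were highest in fibroblast-gated cells and 5 in other classes. The 5 that passed the filter in the class fit (Col1a1, Col1a2, Col3a1, Col5a2 and Col11a1) were higher in fibroblast-gated cells than in each of the other 3 classes. That filter keeps a gene through the class where it is high, so these 5 do not stand for the 11 chains. Col1a1 and Col1a2 are the 2 chains of type I collagen, the main fibre of connective tissue. In fibroblast-gated cells Col1a1 had 464 and 619 CPM in TRPM2 Mg KO bilirubin, 472 and 504 in WT bilirubin, and 561 and 529 in WT vehicle. Col1a2 had 434 and 763 CPM in TRPM2 Mg KO bilirubin, 473 and 658 in WT bilirubin, and 548 and 467 in WT vehicle. The 3 groups overlapped for Col1a2, and for Col1a1 the values of WT vehicle lay between the 2 of TRPM2 Mg KO bilirubin.

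Col1a1 was 4.77 ± 0.24 higher (log2 fold change ± SE) in fibroblasts than in mural cells, 4.99 ± 0.18 higher than in endothelial cells and 5.88 ± 0.17 higher than in choroid plexus cells, each in 6 of 6 libraries (edgeR adjusted p = 9.29e-17, 5.50e-21 and 2.63e-23). Col3a1, the chain of the thinner type III fibres, averaged 107 ± 23.6 CPM in fibroblast-gated cells and was 5.0 ± 0.30 higher than in endothelial cells. The 2 type I chains stood close to parity there, with 1.04 Col1a2 UMIs per Col1a1 UMI (0.88 to 1.31 by library), although an assembled molecule holds more of the alpha-1 chain. In choroid plexus cells, where both were low, the ratio was 2.41.

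Fibroblast values were set against a class that should lack these genes. Microglia-gated cells averaged 12.4 ± 2.39 CPM of Col1a1 and 15.4 ± 2.00 of Col1a2, and T or NK cells 21.3 ± 10.6 of Col1a2. With each cell thinned to 1000 UMIs, Col1a1 was seen in a median of 36.4% of fibroblast-gated cells (33.0% to 38.2% by library) and in 1.17% of microglia (0.752% to 1.59%). Thinning left out 10 fibroblasts and 462 microglia as too shallow, and unthinned medians were 74.8% and 2.76%. How much of the collagen I in other classes was cell-free RNA was not tested.

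Other fibrillar chains peaked elsewhere. Col27a1, a fibrillar chain best known from cartilage, was highest in microglia-gated cells at 52.1 and 58.8 CPM in TRPM2 Mg KO bilirubin, 62.1 and 99 in WT bilirubin, and 46.0 and 40.7 in WT vehicle. Both WT vehicle libraries were the lowest. Col11a2, also a cartilage fibril chain, averaged 32.5 ± 12.2 CPM in astrocytes, and Col5a3, a minor regulatory chain, 39.3 ± 18.7 in ependymal cells. In a fit of all 9 classes over 11886 genes, added after the data were seen, with each class set against the mean of the other 8, edgeR gave 2.60 ± 0.14 for Col27a1 in microglia, 3.69 ± 0.25 for Col11a2 in astrocytes and 3.71 ± 0.28 for Col5a3 in ependymal cells.

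That fit held 30 members, and the split by class was uneven. Fibroblasts had 20 members higher and 6 lower than the mean of the other classes (22.3% and 27.1% of all genes), mural cells 12 and 0 (6.4% and 4.96%), endothelial cells 7 and 7 (15.7% and 11.5%) and ependymal cells 11 and 10 (24.4% and 23.3%). Astrocytes had 5 higher and 6 lower (23.1% and 20.7%), choroid plexus cells 7 and 23 (30.8% and 47.4%), and oligodendrocytes 1 and 12 (17.5% and 23.9%). Microglia had 2 higher and 25 lower (28.4% and 30%), and T or NK cells 0 and 8 (19.4% and 17.4%). The 2 members higher in microglia were Col27a1 and Col15a1, a basement membrane-linked multiplexin.

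Collagen IV followed the vessel wall. Col4a1 and Col4a2 encode the ubiquitous alpha-1 and alpha-2 chains and lie head to head on chromosome 8, with overlapping gene starts. In mural-gated cells Col4a1 had 423 and 168 CPM in TRPM2 Mg KO bilirubin, 252 and 319 in WT bilirubin, and 155 and 182 in WT vehicle. In endothelial-gated cells it had 278 and 60.6 CPM in TRPM2 Mg KO bilirubin, 169 and 239 in WT bilirubin, and 148 and 118 in WT vehicle. The lowest endothelial value was that of the library whose endothelial cells stood apart.

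Col4a1 was lower in fibroblasts, with log2 fold changes of −2.00 ± 0.29 over mural cells (edgeR adjusted p = 1.38e-06) and −1.43 ± 0.26 over endothelial cells (adjusted p = 3.20e-05). Between mural and endothelial cells it was higher in mural cells in 6 of 6 libraries, by 0.56 ± 0.25, which did not pass (adjusted p = 0.148). Col4a2 gave 0.34 ± 0.25 in that pair (adjusted p = 0.443). The chains kept a similar ratio in both classes, 2.76 Col4a1 UMIs per Col4a2 UMI in mural cells (1.83 to 3.40 by library) and 2.25 in endothelial cells (1.94 to 2.93).

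The tissue-restricted chains Col4a3 and Col4a4, another head-to-head pair on chromosome 1, behaved otherwise. Col4a4 was 2.90 ± 0.49 higher in mural than in endothelial cells and lower in endothelial than in choroid plexus cells (−2.92 ± 0.27). In choroid plexus cells Col4a4 had 973 UMIs to the 454 of Col4a3, and in mural cells 23 to 28.

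Collagens VI and VIII were highest in fibroblasts for 5 of their 8 chains. Col6a1 and Col6a2 encode chains of the beaded microfibrils around cells and averaged 335 ± 44.0 and 257 ± 79.4 CPM in fibroblast-gated cells, and were 3.80 ± 0.27 and 4.18 ± 0.30 higher there than in mural cells. Col6a3, the long chain of the classical trimer, did not keep pace: it had 38 UMIs in fibroblast-gated cells, or 29.4 Col6a1 UMIs for each, while in microglia the ratio was 1.21 with 164 Col6a3 UMIs. Col6a5, a later-found chain, was highest in ependymal cells and is described with the groups.

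Col8a1 and Col8a2, short-chain collagens of endothelial and corneal membranes, were also higher in fibroblasts than in choroid plexus cells. Col8a1 averaged 161 ± 43.4 CPM in fibroblast-gated cells and 49.2 ± 17.6 in choroid plexus cells, a log2 fold change of 1.12 ± 0.18 for fibroblasts over choroid plexus, and Col8a2 gave 1.16 ± 0.21. Both were lower in mural than in choroid plexus cells, with log2 fold changes of −1.91 ± 0.34 for Col8a1 and −2.16 ± 0.55 for Col8a2.

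**Figure D2:**
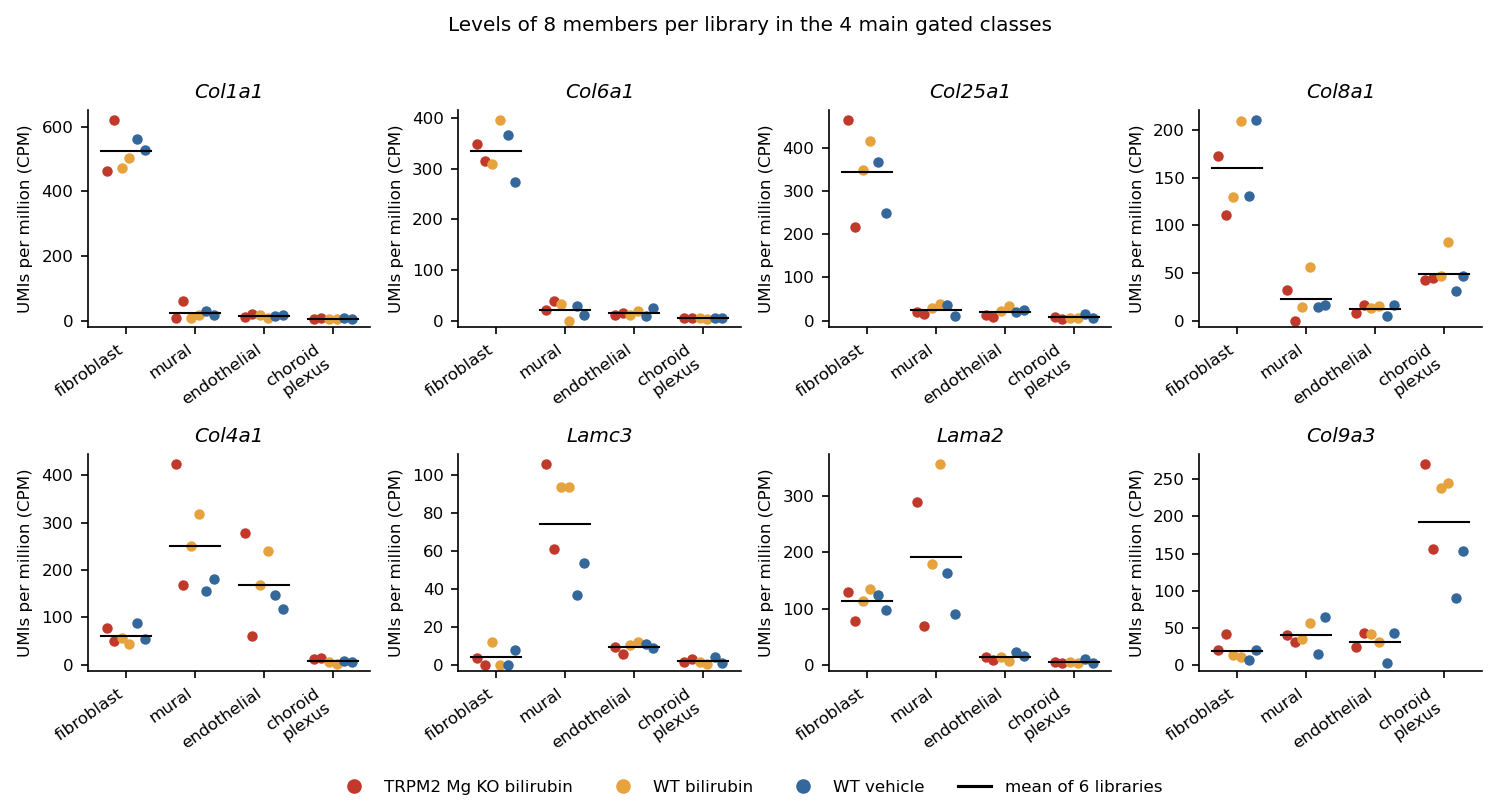
Levels in CPM of 8 members in the 4 main classes, 1 point per library, with TRPM2 Mg KO bilirubin left of WT bilirubin and WT vehicle. Col1a1 lay between 464 and 619 CPM in fibroblast-gated cells, and Col4a1 between 155 and 423 CPM in mural-gated cells.

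Among the fibril-associated collagens, Col12a1 had its highest mean level in fibroblast-gated cells and Col9a3 in choroid plexus cells. Col12a1, which coats type I fibres, averaged 321 ± 61.2 CPM in fibroblast-gated cells and was 4.21 ± 0.27 higher than in mural cells. Col9a3, a chain of the type IX collagen of cartilage, had 270 and 157 CPM in choroid plexus cells of TRPM2 Mg KO bilirubin, 238 and 245 in WT bilirubin, and 90.0 and 153 in WT vehicle. Its log2 fold change over choroid plexus cells was −4.21 ± 0.27 in fibroblasts, −3.00 ± 0.29 in mural cells and −3.20 ± 0.22 in endothelial cells. Its partner Col9a1 had 3 UMIs there, against 14743 of Col9a3.

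Col9a3 was also among the top 2 members in astrocytes, oligodendrocytes, microglia and T or NK cells, at means of 23.5 to 48.6 CPM. Its level was set beside that of Ttr, pooled over the libraries. Choroid plexus cells held 1.28 Col9a3 UMIs per 1000 Ttr UMIs, endothelial cells 0.956, mural cells 1.20, ependymal cells 1.26, microglia 1.35, T or NK cells 1.40, fibroblasts 1.53, oligodendrocytes 1.73 and astrocytes 2.60. In WT vehicle 1, where Ttr in T or NK cells was 2785 CPM against 16234 to 51201 elsewhere, Col9a3 was at 0 there, against 30.0 to 84.5 CPM. A count of 0 there allows up to 9.13 CPM (3 UMIs, counting error only). The ratio varied most in that library, at 0.892 in choroid plexus cells, 0.713 in endothelial cells and 0.471 in microglia, but 7.35 in astrocytes, 5.59 in fibroblasts, 5.02 in ependymal cells, 3.24 in mural cells and 3.19 in oligodendrocytes. Whether Col9a3 outside the choroid plexus came from cell-free RNA was not tested.

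**Figure D3:**
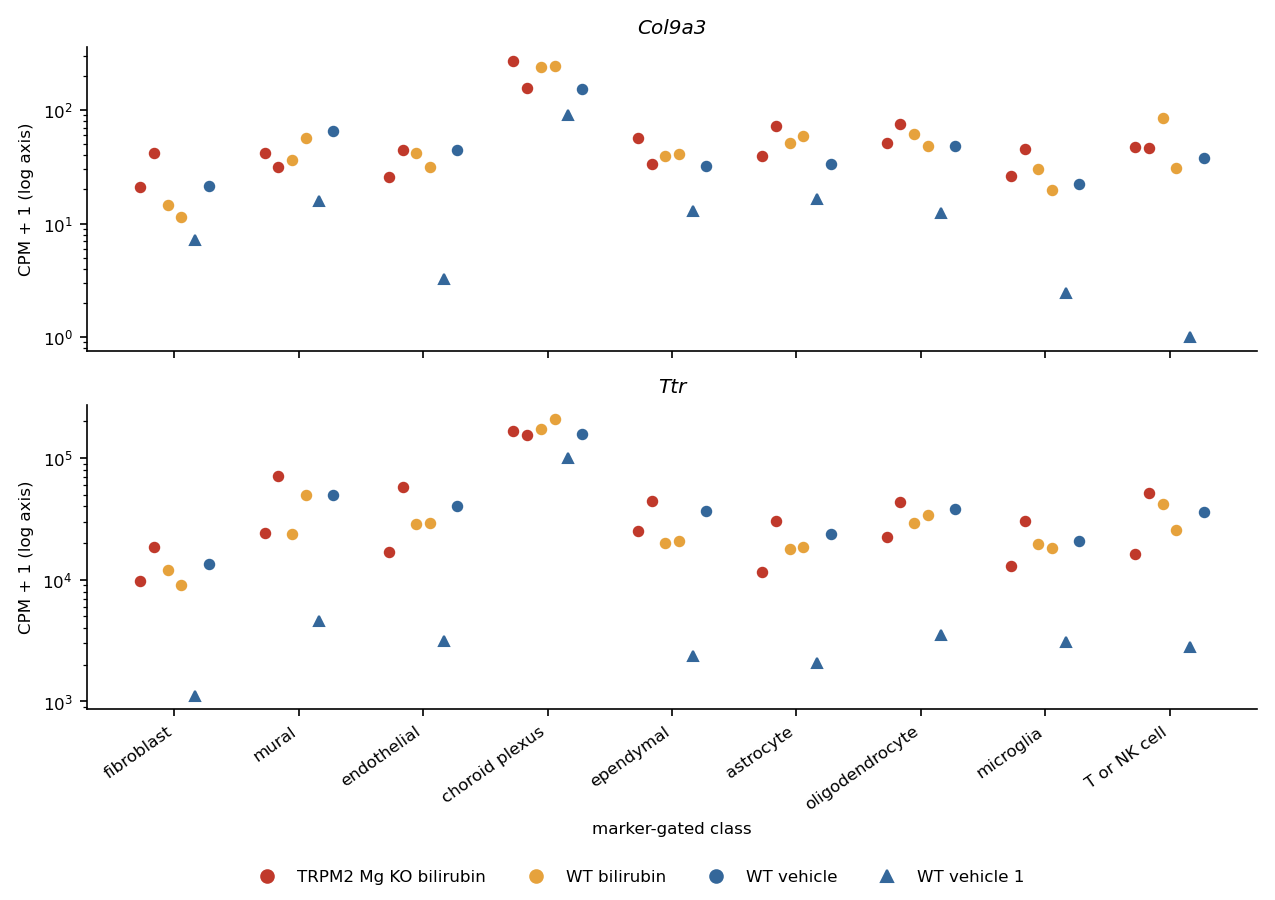
Col9a3 and Ttr in the 9 tested classes, as CPM + 1 on a log axis, with 1 point per library and WT vehicle 1 as a triangle. Both were highest in choroid plexus cells, where Ttr averaged 160655 CPM and Col9a3 192 CPM, and WT vehicle 1 was the lowest library for Ttr in every class.

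The transmembrane collagens Col25a1 and Col23a1 had their highest mean levels in fibroblast-gated cells among the 9 tested classes. That gate held 1235 of the 6489 Col25a1 UMIs of all barcodes and 326 of the 2099 of Col23a1. For Col23a1 the fibroblast libraries overlapped those of other classes. Col25a1 is known as the collagenous component of amyloid plaques and from neurons. In fibroblast-gated cells it had 464 and 217 CPM in TRPM2 Mg KO bilirubin, 349 and 415 in WT bilirubin, and 368 and 249 in WT vehicle. It was the third most abundant member of the class and 3.92 ± 0.28 higher than in mural cells. Neuron gates held too few cells to test, with 105 excitatory and 53 inhibitory neurons in all and 11 and 9 UMIs of Col25a1.

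The laminin chains differed in level between classes, and their assembly into trimers was not measured. Lama2, the alpha chain of muscle and glial basement membranes, had 289 and 68.9 CPM in mural cells of TRPM2 Mg KO bilirubin, 179 and 356 in WT bilirubin, and 163 and 91.0 in WT vehicle. In astrocytes it had 118 and 93.2 CPM in TRPM2 Mg KO bilirubin, 156 and 273 in WT bilirubin, and 171 and 103 in WT vehicle. Fibroblasts averaged 113 ± 21.8 CPM and endothelial cells 13.5 ± 5.72. Lama2 was 3.62 ± 0.25 higher in mural than in endothelial cells (edgeR adjusted p = 4.95e-13), and between fibroblast and mural cells it was the 1 member not called, at −0.56 ± 0.23 (adjusted p = 0.0533).

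Lama4 and Lama5, the alpha chains of vessel laminins, were found in mural and endothelial cells. Lama4 was 0.96 ± 0.24 higher in mural than in endothelial cells, in 6 of 6 libraries (edgeR adjusted p = 0.00396). Lama5 was highest in endothelial cells, at 33.2 and 11.2 CPM in TRPM2 Mg KO bilirubin, 29.2 and 60.6 in WT bilirubin, and 11.2 and 16.7 in WT vehicle. It was −2.82 ± 0.38 in fibroblasts against endothelial cells, while mural against endothelial cells gave −0.92 ± 0.42 (adjusted p = 0.158).

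The gamma chains were highest in mural cells. Lamc3 had 106 and 61.2 CPM in mural cells of TRPM2 Mg KO bilirubin, 93.7 and 93.8 in WT bilirubin, and 36.9 and 53.5 in WT vehicle, and averaged 9.63 ± 2.21 CPM in endothelial cells. Lamc1, the common gamma chain, averaged 166 ± 55.8 CPM in mural and 34.4 ± 9.56 in endothelial cells. The mural-over-endothelial differences were 3.09 ± 0.35 for Lamc3 and 2.22 ± 0.18 for Lamc1 (edgeR adjusted p = 2.59e-08 and 1.90e-11), higher in 6 of 6 libraries each.

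The beta chains differed by class too. Lamb2, the beta chain of mature vessel and synaptic laminins, was 1.02 ± 0.17 higher in fibroblasts than in endothelial cells. Lamb1, the other beta chain, was −3.30 ± 0.53 in fibroblasts against mural cells and −3.03 ± 0.39 against choroid plexus cells. Fibroblast-gated cells held 523 Lamb2 and 11 Lamb1 UMIs, whereas choroid plexus cells held 0.77 Lamb2 UMIs per Lamb1 UMI.

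**Figure D4:**
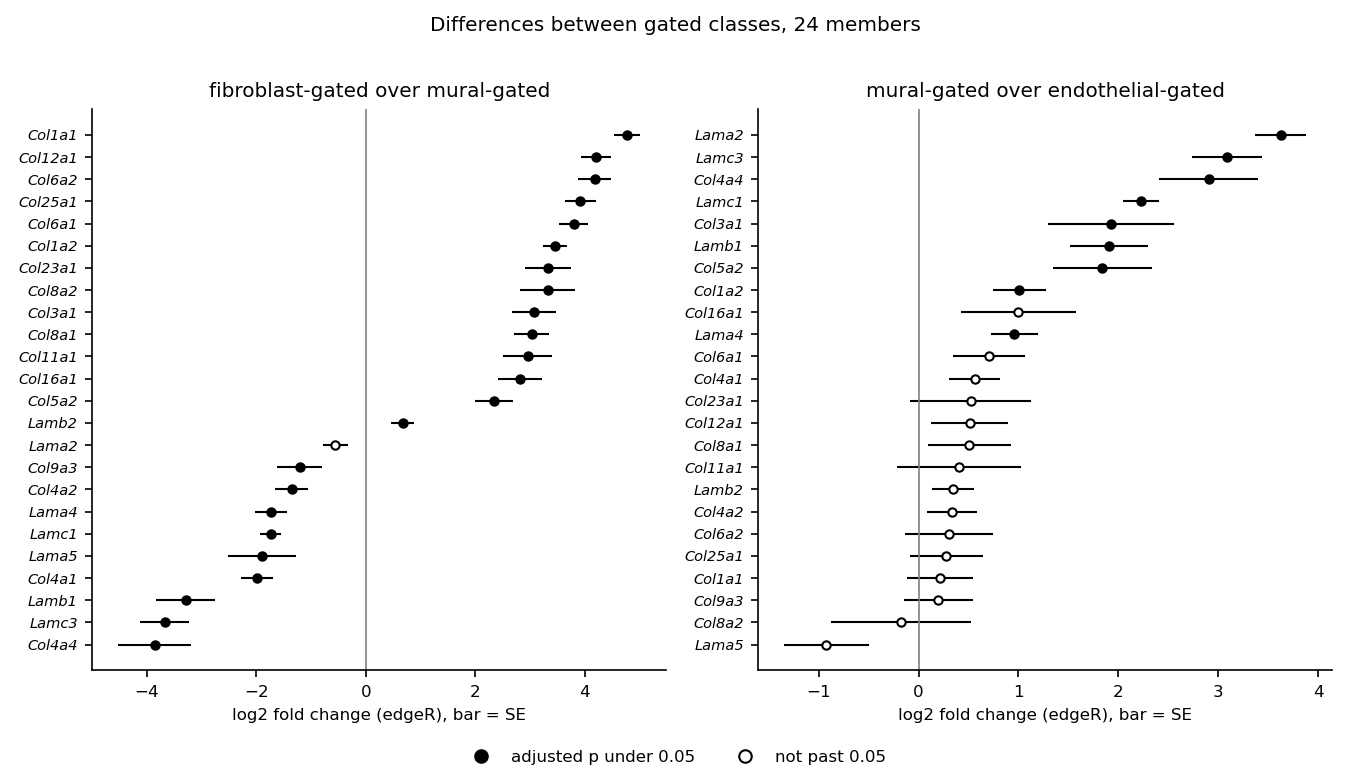
Log2 fold changes ± SE of 24 members for fibroblast-gated over mural-gated cells and for mural-gated over endothelial-gated cells, with filled points at an edgeR adjusted p under 0.05. Fibroblasts were higher for 14 and lower for 9 members, and mural cells were higher than endothelial cells for 9 and lower for 0.

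Mural and endothelial cells had the fewest members called of the 6 pairs of classes, and also the fewest genes of any kind. Of the 24 members 9 were called (14.2% of all genes), with 9 higher in mural cells (6.37%) and 0 lower (7.86%): Lama2, Lamc3, Col4a4, Lamc1, Col3a1, Lamb1, Col5a2, Col1a2 and Lama4. Without TRPM2 Mg KO bilirubin 2, or without WT vehicle 1, 10 members were called in this pair. Against choroid plexus cells, 16 members were higher and 3 lower in mural cells (28.3% and 29% of all genes, 57.4% together), and 15 higher and 5 lower in endothelial cells (38% and 35.1%, 73.1% together). The largest were 5.32 ± 0.38 for Lamc3 in mural over choroid plexus cells and 3.92 ± 0.26 for Col4a1 in endothelial over choroid plexus cells.

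Ttr took up much of the choroid plexus sums, so the scaling was checked. Without a scaling factor, the median of all genes shifted to 0.53 for fibroblast over choroid plexus cells, 0.71 for mural and 0.67 for endothelial. The share of called genes that were higher moved with it, to 77.5% without the factor against 47.1% with it for fibroblasts, 80.5% against 49.4% for mural and 77.4% against 52.0% for endothelial cells. Among the called members the shares moved less, to 87.0% against 83.3%, 86.4% against 84.2%, and 79.2% against 75.0%.

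Genes that process, bind or cut matrix were taken from lists that had been drawn up with earlier results of these data known. Of 17 folding and processing genes tested, 9 were higher and 1 lower in fibroblasts than in mural cells, with 4.44 ± 0.42 for Adamts2, which trims procollagen I, and 1.51 ± 0.18 for Serpinh1, the collagen chaperone. Against endothelial cells 12 were higher and 2 lower. These counts, and those of the lists that follow, stand beside the shares of all genes given above, 16.9% higher and 18.7% lower for fibroblasts against mural cells and 20.5% and 23.8% against endothelial cells. The list's median was 0.92 in both comparisons, where the median of all genes was 0.01 and −0.02.

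Of 9 receptors, 4 were higher and 3 lower in fibroblasts than in mural cells. Ddr2, a receptor for fibrillar collagen, was 2.74 ± 0.28 higher, and Itga1 and Itga6, integrin chains for collagen IV and laminin, were −4.81 ± 0.39 and −2.26 ± 0.37. Of 9 proteases and inhibitors, 5 were higher and 0 lower, led by Timp1 at 4.92 ± 0.32 and Ctsk at 3.60 ± 0.39. Of 8 TGF-beta and CTGF genes, 4 were higher and 0 lower, with Tgfbi at 2.83 ± 0.36. Among 7 other basement membrane genes, Nid1, which links laminin to collagen IV, was 2.70 ± 0.28 higher in mural than in endothelial cells, and Fn1 (fibronectin) was −2.25 ± 0.26.

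The second question was whether bilirubin, or the knockout under bilirubin, changed the members within a class. Over fibroblast, mural, endothelial and choroid plexus cells, 97 pairs of class and member were tested in each comparison, and edgeR and DESeq2 each called 0 in all 3. At an unadjusted p under 0.05 edgeR had 9 pairs for WT bilirubin against WT vehicle, 4 for TRPM2 Mg KO bilirubin against WT bilirubin and 7 for TRPM2 Mg KO bilirubin against WT vehicle. Over all 9 classes 171 pairs were tested, with 0 called and 16, 16 and 13 under an unadjusted 0.05.

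Few genes of any kind were called. For WT bilirubin against WT vehicle the share of all genes called was 0.0694% in fibroblasts, 0.0314% in mural, 0.0155% in endothelial and 0.576% in choroid plexus cells. It was 0% in ependymal cells, 0.0111% in astrocytes, 2.54% in oligodendrocytes, 0.0215% in microglia and 0% in T or NK cells. For TRPM2 Mg KO bilirubin against WT bilirubin it was 0.0278% in fibroblasts, 0.0464% in choroid plexus cells, 0.00718% in microglia and 0% in the other 6 classes. For TRPM2 Mg KO bilirubin against WT vehicle it was 0.0314% in mural cells, 0.0927% in choroid plexus cells, 0.0111% in astrocytes, 0.0494% in oligodendrocytes and 0% in the other 5. So 0 called members lies near the background.

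On simulated counts the fibroblast fit found 76.3% of 4-fold and 22.1% of 2-fold changes for WT bilirubin against WT vehicle over 7200 genes, and the endothelial fit 28.3% and 0% over 12935. A 2-fold change was thus found in few or none of the simulated cases in these fits. The changed genes were drawn from all genes above a count limit, so no rate for the members follows. The mural and choroid plexus group fits were not simulated.

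**Figure D5:**
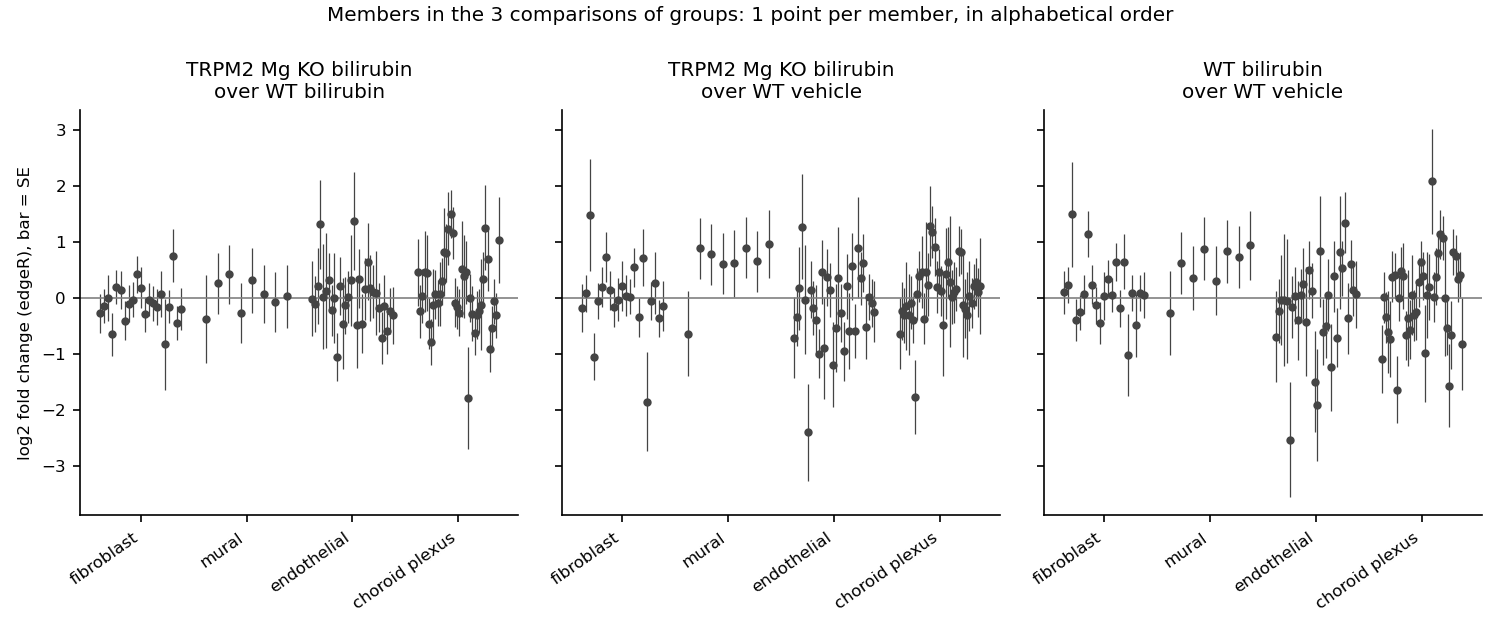
Members' log2 fold changes ± SE in the 4 main classes for the 3 comparisons of groups, as fitted by edgeR. No member passed an adjusted p of 0.05, and the fitted values ran from −2.53 to 2.08 for WT bilirubin against WT vehicle.

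Under bilirubin, the members with the smallest p in choroid plexus cells were Col19a1, Col9a3 and Col8a2. Col9a3 averaged 242 ± 4.79 CPM in WT bilirubin and 121 ± 44.5 in WT vehicle (SD, n = 2 each), a log2 fold change of 1.07 ± 0.40 (edgeR adjusted p = 0.212). Without WT vehicle 1 it was 0.58 (adjusted p = 1.00), and Ttr in this class was 174807 and 208615 CPM in WT bilirubin against 100885 and 158095 in WT vehicle. The part of Ttr-rich cells or RNA in the Col9a3 difference was not tested. Col8a2 had 12.4 and 32.8 CPM in WT bilirubin against 5.04 and 13.8 in WT vehicle, so the groups overlapped (1.14 ± 0.44, adjusted p = 0.232).

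Col19a1, a fibril-associated collagen of muscle and of neurons, was lower in bilirubin libraries of both genotypes. In choroid plexus cells it had 1.28 and 0.49 CPM in TRPM2 Mg KO bilirubin, 1.25 and 0.98 in WT bilirubin, and 5.04 and 3.21 in WT vehicle. In endothelial cells it had 2.71 and 0.55 CPM in TRPM2 Mg KO bilirubin, 1.77 and 0 in WT bilirubin, and 6.73 and 9.68 in WT vehicle. The 2 WT vehicle libraries were the highest in each class, on 115 and 36 UMIs in all, and the 0 in endothelial cells of WT bilirubin 2 allows up to 9.09 CPM. For WT bilirubin against WT vehicle the fitted values were −1.64 ± 0.59 in choroid plexus and −2.53 ± 1.03 in endothelial cells (edgeR adjusted p = 0.195 and 0.361), and for TRPM2 Mg KO bilirubin against WT vehicle −1.77 and −2.40 (adjusted p = 0.913 and 0.402). Without WT bilirubin 1 the endothelial value for WT bilirubin was −7.42, with the remaining library at 0, where a fitted value is no bound, and without TRPM2 Mg KO bilirubin 1 the choroid plexus value for TRPM2 Mg KO bilirubin was −2.84. Both comparisons use the same WT vehicle libraries.

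The list of 9 neuronal RNAs differed between the libraries too. In choroid plexus cells it summed to 1478 and 2738 CPM in TRPM2 Mg KO bilirubin, 867 and 1010 in WT bilirubin, and 10176 and 2323 in WT vehicle. TRPM2 Mg KO bilirubin 2, with the lowest Col19a1, lay above WT vehicle 2 in this sum. Over all 9 classes 14 of its 222 group tests were called, all lower. Without WT vehicle 1 the choroid plexus value of Col19a1 for WT bilirubin against WT vehicle was −1.58. The part of neuronal RNA in the Col19a1 difference was not tested.

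In fibroblasts, Col23a1 had 116 and 127 CPM in WT bilirubin against 93.5 and 28.2 in WT vehicle (1.14 ± 0.41, edgeR adjusted p = 0.432), and Col6a2 averaged 308 ± 94.6 CPM in WT bilirubin against 183 ± 5.13 in WT vehicle (0.64 ± 0.33, adjusted p = 0.713). Col14a1, a fibril-associated collagen of connective tissue, gave 1.49 (adjusted p = 0.759). In endothelial cells Lama5 averaged 44.9 ± 22.2 CPM in WT bilirubin against 14.0 ± 3.90 in WT vehicle (1.35 ± 0.54, adjusted p = 0.355), and Col4a5 gave −1.91. In mural cells Lamc3, Lama2 and Lamb2 gave 0.94, 0.88 and 0.83 (smallest adjusted p = 0.996). None passed the test.

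For the knockout under bilirubin, Col4a1 in choroid plexus cells came nearest to the threshold in the 4 classes. It had 11.6 and 14.6 CPM in TRPM2 Mg KO bilirubin, 6.32 and 2.31 in WT bilirubin, and 7.92 and 4.87 in WT vehicle. The knockout libraries were the 2 highest, and the difference from WT bilirubin was 1.49 ± 0.43 (edgeR adjusted p = 0.430). Col4a2 gave 1.16 ± 0.47 (adjusted p = 0.951).

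The 12 endothelial markers, 0 of them at 0, moved with Col4a1 in this class. They summed to 462 and 716 CPM in TRPM2 Mg KO bilirubin, 364 and 107 in WT bilirubin, and 354 and 149 in WT vehicle. Choroid plexus cells held 22.3 Col4a1 UMIs per 1000 endothelial-marker UMIs (17.4 to 32.7 by library), and endothelial cells 15.6 (12 to 19.2). In mural cells the ratio was 181. The part of endothelial RNA in the choroid plexus difference was not tested.

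In fibroblasts the smallest p for TRPM2 Mg KO bilirubin against WT bilirubin belonged to Col16a1, Lamb2 and Lama4, at −0.65, −0.45 and 0.75. In mural cells Col4a2, Lama2 and Lama4 gave 0.42, −0.27 and 0.31. In endothelial cells Col25a1 averaged 10.8 ± 2.58 CPM in TRPM2 Mg KO bilirubin against 28.0 ± 7.52 in WT bilirubin (−1.06 ± 0.43, edgeR adjusted p = 1.00), and Col15a1 and Col4a5 gave 1.31 and 1.37. Lama5 in choroid plexus cells gave −0.92. None passed.

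Against WT vehicle, TRPM2 Mg KO bilirubin gave −1.05 for Col16a1, 0.73 for Col23a1 and −1.85 for Lama1 in fibroblasts, and 0.97 for Lamc3, 0.88 for Col4a1 and 0.90 for Lamb2 in mural cells. In endothelial cells Col25a1 and Col6a2 gave −1.0 and −0.96, and in choroid plexus cells Col9a3 and Col4a1 gave 0.83 and 1.18. None passed, with the smallest edgeR adjusted p at 0.402, for Col19a1 in endothelial cells.

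Outside these 4 classes, Col6a5 in ependymal cells had the smallest p of any member for the knockout under bilirubin, and was named among the highest members of that class. It had 16.3 and 0.734 CPM in TRPM2 Mg KO bilirubin, 48.0 and 73.8 in WT bilirubin, and 40.2 and 71.8 in WT vehicle, on 154 UMIs in all. Both knockout libraries lay below the other 4. TRPM2 Mg KO bilirubin 2 held 1361548 UMIs in 127 ependymal cells, and TRPM2 Mg KO bilirubin 1 held 430023 in 82. Its scaling factor in this class, that of TRPM2 Mg KO bilirubin 2, was 0.790, against 0.948 to 1.13 in the other libraries. The fitted difference was −3.21 ± 0.70 over WT bilirubin (edgeR adjusted p = 0.479) and −3.32 ± 0.73 over WT vehicle (adjusted p = 0.581). Col6a5 had a UMI in a median of 3.54% of ependymal cells thinned to 1000 UMIs, and in 0% of fibroblast-gated cells.

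Other ependymal members were picked out after their values were seen. Lamb2 had 62.8 and 38.9 CPM in TRPM2 Mg KO bilirubin, 48.0 and 58.0 in WT bilirubin, and 7.09 and 16.7 in WT vehicle, with both WT vehicle libraries the lowest (1.93 ± 0.49 for WT bilirubin against WT vehicle, edgeR adjusted p = 0.343). Col5a3 averaged 20.4 ± 3.98 CPM in TRPM2 Mg KO bilirubin against 60.7 ± 8.5 in WT bilirubin (−1.32 ± 0.38, adjusted p = 0.921). Endothelial markers summed to 451 and 1708 CPM in ependymal cells of TRPM2 Mg KO bilirubin, 572 and 75.5 in WT bilirubin, and 440 and 340 in WT vehicle, and their part in these differences was not tested.

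Of the partner lists, 2 genes were called in a group comparison over the 9 classes. Pcolce, which enhances procollagen C-terminal trimming, was higher in choroid plexus cells of WT bilirubin, at 272 and 141 CPM against 69.8 and 62.9 in WT vehicle (1.76 ± 0.40, edgeR adjusted p = 0.0339), and TRPM2 Mg KO bilirubin had 168 and 105. It was the 1 call in 384 tests of the folding and processing list, and 0.576% of all genes were called in that class and comparison. The 12 fibroblast markers summed to 94.8 and 101 CPM in choroid plexus cells of WT bilirubin. They summed to 71.3 and 63.3 in WT vehicle, and to 95.5 and 90.5 in TRPM2 Mg KO bilirubin. The part of fibroblast RNA in the Pcolce difference was not tested. Timp4, a metalloprotease inhibitor, was lower in oligodendrocytes of WT bilirubin than of WT vehicle (−2.00 ± 0.52, edgeR adjusted p = 0.0497). This was the 1 call in 189 tests of its list, and 2.54% of all genes were called in that class and comparison. The receptor, basement membrane and TGF-beta lists had 0 calls in 195, 135 and 174 tests.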

How the data were processed

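The 6 libraries are 10x 3′ libraries of dissociated mouse brain cells, and the authors deposited a filtered matrix of raw UMI counts for each, with no cell annotation. The feature and barcode lists, deposited beside them, hold other values (names only). Per the file headers the matrices come from Cell Ranger 9.0.1. The submitters' processing notes name version 8.0.0 of it, Scanpy at 1.9.6 and 2 builds (GRCm39, mm10) with no role, so which build the counts use is unknown. Coordinates are those of the RefSeq tables (GRCm38.p6).

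Barcodes under 500 UMIs, under 300 genes or over 15% mitochondrial UMIs were dropped, and Scrublet doublets were removed at 0.8% per 1000 cells, 14246 in all. A class needed 3 markers above background at p of 0.0001, with the next class at no more than 0.5 of its −log10 p. These limits were set after the data were seen. UMIs were summed per class and library.

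Group differences used edgeR 4.0.16 (quasi-likelihood, group only, TMM scaling, filterByExpr, Benjamini-Hochberg, 3 residual degrees of freedom) and class differences the fit described in the results. The fold changes are TMM-scaled and do not equal CPM ratios. DESeq2 1.42.0, limma 3.58.1, R 4.3.3, Python 3.11.15, scanpy 1.11.5, scipy 1.17.1 and numpy 2.4.6 were also used. The fits were tested on simulated data. Alternatives were other gates and cell filters, doublets kept, other scaling, no low-count filter, DESeq2, a replicate block and each library left out. An exact permutation of 2 against 2 libraries cannot go below 0.333, so none is given.

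The members and lists were chosen with earlier results of these data known. Members named are the 6 highest in each main class and the 2 highest in each other class, those past 0.05, or the 3 smallest p in a main class and comparison, and the 3 highest and lowest changes per class pair. At most 3 genes were named per partner list and comparison. Intervals and limits for a count of 0 cover counting error only.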

Additional observations from a re-analysis of the deposited data

Results flagged for a closer look

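For 8 pairs of classes, a member's 2 libraries of 1 group all lay above those of the other group in 1 class and all below them in another. None of these differences between classes was tested and none of the values below passed an adjusted p of 0.05. With 2 libraries against 2, full separation in 1 class has an exact permutation p of 0.333. The share of all genes with this pattern is not given, so the 8 are no result about the members.

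For WT bilirubin against WT vehicle, Lama2, the muscle-type laminin alpha chain, had a log2 fold change of 0.88 in mural cells and −0.71 in endothelial cells. Lama4, the vessel laminin alpha chain, had −0.49 in fibroblast-gated cells and 0.53 in endothelial cells.

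For TRPM2 Mg KO bilirubin against WT bilirubin, Col5a2, a regulatory chain of type V fibrils, had −0.30 in fibroblast-gated cells and −0.48 in endothelial cells, with 0.45 in choroid plexus cells. Lamc3 had −0.31 in endothelial cells and 1.03 in choroid plexus cells.

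For TRPM2 Mg KO bilirubin against WT vehicle, Col3a1 had −0.89 in endothelial cells and 1.29 in choroid plexus cells, Col6a2 had 0.54 in fibroblast-gated cells and −0.96 in endothelial cells, and Col8a2 had −0.59 in endothelial cells and 0.83 in choroid plexus cells. The endothelial values include TRPM2 Mg KO bilirubin 2, whose endothelial cells stood apart.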

How the results depend on the processing

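The 0 member calls of the group comparisons stayed at 0 with the replicate block, whose numbers do not pair the libraries (correlations of −0.38 to 0.24 between same-numbered libraries). Crossed numbers, added after seeing the data, gave 1 call for WT bilirubin against WT vehicle, 1 for TRPM2 Mg KO bilirubin against WT bilirubin and 0 for TRPM2 Mg KO bilirubin against WT vehicle. Leaving out 1 library gave 0 to 2, 0 to 1 and 0 to 0 calls. The calls were Col9a3 (1.74, edgeR adjusted p = 0.0288) and Col8a2 (2.48, 0.0498) in choroid plexus cells without WT vehicle 2, Col8a2 (1.63, 0.0104) without WT bilirubin 1 and, for the knockout under bilirubin, Col4a1 (2.36, 0.00751) without WT bilirubin 1. Without WT vehicle 1, Col9a3 was 0.58.

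Between mural and endothelial cells, 9 calls became 16 without a low-count filter and 16 with DESeq2, and 6 to 12 with 1 library left out. Between mural and choroid plexus cells, 19 became 32 with DESeq2 and 17 to 21 with 1 library left out. DESeq2 was run on every gene with a count, so its calls are not out of the 24 members of the edgeR fit. The other pairs ranged over 19 to 25 (fibroblast and mural), 18 to 23 (fibroblast and endothelial), 21 to 26 (fibroblast and choroid plexus) and 17 to 22 (endothelial and choroid plexus). Lamb1 lost its call between fibroblasts and endothelial cells without WT vehicle 2 (−1.19, adjusted p = 0.0613) and without WT bilirubin 2 (−1.03, adjusted p = 0.0880).

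Values that changed sign had no call. For the knockout under bilirubin in mural cells they were Col4a2 (fold change −0.022 with the stricter gate), Lama4 (−0.051 with the looser gate) and Lama2 (−1.38 to 0.38 with 1 library left out, above 0 without WT bilirubin 2 or TRPM2 Mg KO bilirubin 2, and 0.22 with the stricter cell filter). For TRPM2 Mg KO bilirubin against WT vehicle, Col23a1 in fibroblasts ran from −0.024 without WT vehicle 2 to 1.54 without WT vehicle 1. The causes were not tested. With 32 to 182 mural and 34 to 204 fibroblast-gated cells per library, the depth limits what these classes can show.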

Other observations

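Members were also measured in classes that the comparisons above used little. In astrocytes, Lama2 was 2.67 ± 0.14 and Lama3, the alpha chain of epithelial laminin, 2.89 ± 0.35 higher than the mean of the other 8 classes (edgeR, log2 fold change ± SE). All 17 members tested in astrocytes had a fitted value above 0 for WT bilirubin against WT vehicle. Their median was 0.81 where the median of all genes was 0.05, and 0 passed an adjusted p of 0.05. At an unadjusted p under 0.05 edgeR had 4 of the 17, beside 7.85% of all genes in this class, and DESeq2 called 0. Endothelial markers in these astrocytes summed to 790 and 140 CPM in WT bilirubin against 529 and 358 in WT vehicle, and neuronal RNAs to 2493 and 1436 against 15455 and 6548. Their part in the shift was not tested.

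In microglia, Col27a1 averaged 80.6 ± 26.2 CPM in WT bilirubin against 43.4 ± 3.78 in WT vehicle (0.78 ± 0.31, edgeR adjusted p = 0.315), and Col4a1 averaged 23.3 ± 1.36 CPM in TRPM2 Mg KO bilirubin against 9.36 ± 5.35 in WT bilirubin (1.24 ± 0.40, adjusted p = 1.00). Endothelial markers in microglia summed to 918 and 910.0 CPM in TRPM2 Mg KO bilirubin against 664 and 168 in WT bilirubin, and microglia held 26.7 Col4a1 UMIs per 1000 of these markers. In oligodendrocytes Col1a1 averaged 31.9 ± 5.67 CPM in TRPM2 Mg KO bilirubin against 7.09 ± 5.39 in WT bilirubin (2.13 ± 0.60, adjusted p = 0.327), where fibroblast markers summed to 106 and 153 CPM against 55.9 and 44.2. These members were picked out after their values were seen, and the part of the other cell types' RNA was not tested.

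Classes too small to test were led by other members. Col25a1 led excitatory neurons at 42.0 CPM and inhibitory neurons at 135 CPM, which without WT bilirubin 2 were 27.3 and 32.6 CPM. Striatal neurons were led by Lamb3 (113 CPM, on 1 UMI), with Col25a1 next at 68.6 CPM (12 UMIs). Oligodendrocyte precursors were led by Col4a2 (87.8 CPM, 15 UMIs), neutrophils by Col9a3 (52.8 CPM) and B cells by Lamb3 (84.7 CPM, 6 UMIs, and 19.0 CPM without TRPM2 Mg KO bilirubin 2).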
